A study of Mus musculus with 2 samples.

Results

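The kappa variable segments (Igkv) are the germline gene pieces that encode most of the variable domain of the kappa immunoglobulin light chain. The deposited matrices held 160 rows with an Igkv symbol among 32285 genes. Each plasma cell, taken as a cell with at least 20% of its unique molecular identifiers (UMIs) on 392 immunoglobulin genes, was assigned the Igkv row with most UMIs when that row held at least 5. This gave 15534 assigned cells among 25120 cells that passed the quality filter.

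The cells were sorted CD45+ immune cells of the mouse small-intestinal lamina propria, the tissue layer under the gut epithelium, which also carries most IgA-secreting plasma cells of the body. Both pools came from female littermates aged 10 to 12 weeks, fasted for 16 h and then given an olive oil gavage for 2 h. The control pool was Aster-A F/F (floxed alleles of the sterol transporter gene Gramd1a without Cre), and the other pool was CD4-Cre; Aster-A F/F, in which a Cre driven by CD4 deletes the floxed segment in the T lineage. Cells of 3 mice, 100000 sorted per mouse, were pooled into 1 library per genotype, so that each genotype was 1 sample and no difference between genotypes could be tested. The pools are called F/F and CD4-Cre here.

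As background, a developing B cell joins 1 of its Igkv segments to a joining segment (Igkj), by deleting the intervening DNA where the segment lies in the orientation of the constant gene Igkc and by inverting it where the orientation is opposite. The choice is kept by all descendants of the cell, so a clone of plasma cells shares its Igkv and its heavy variable (Ighv) segment. In the gut lamina propria, plasma cells can belong to large, long-lived IgA clones.

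The letters of the segments matter here because reads were only 50 bases long and near-identical segments can share them. The last 90 bases of the annotated transcripts (GENCODE M21, GRCm38) end with the part of the third complementarity-determining region that the germline segment encodes. They are shown for 4 pairs of relatives and for Igkv11-125, assigned to cells of 1 pool only. Capitals mark where the lower sequence of a pair differs from the upper.
Igkv10-96: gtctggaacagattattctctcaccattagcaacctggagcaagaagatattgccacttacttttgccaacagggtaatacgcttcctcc
Igkv10-94: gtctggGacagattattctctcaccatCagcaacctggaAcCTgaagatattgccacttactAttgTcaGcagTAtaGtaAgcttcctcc
Igkv1-110: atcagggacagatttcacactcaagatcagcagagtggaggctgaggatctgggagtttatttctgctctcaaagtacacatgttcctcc
Igkv1-117: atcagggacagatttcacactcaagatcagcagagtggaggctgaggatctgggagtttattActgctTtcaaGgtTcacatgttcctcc
Igkv4-59: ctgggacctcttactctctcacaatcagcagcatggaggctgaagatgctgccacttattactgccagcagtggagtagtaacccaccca
Igkv4-72: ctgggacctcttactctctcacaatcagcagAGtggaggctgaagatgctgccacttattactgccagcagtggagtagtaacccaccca
Igkv3-10: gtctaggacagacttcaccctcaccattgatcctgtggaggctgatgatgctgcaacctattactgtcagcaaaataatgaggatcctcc
Igkv3-5: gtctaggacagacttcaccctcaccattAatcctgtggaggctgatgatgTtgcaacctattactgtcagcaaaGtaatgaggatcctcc
Igkv11-125: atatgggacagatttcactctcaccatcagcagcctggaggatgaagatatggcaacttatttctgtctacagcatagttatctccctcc
Within this stretch Igkv4-72 differed from Igkv4-59 at 2 positions, Igkv3-5 from Igkv3-10 at 3, Igkv1-117 from Igkv1-110 at 4 and Igkv10-94 from Igkv10-96 at 12.

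The files held 222838658 UMIs in F/F and 200580083 in CD4-Cre. Of 12594 F/F and 12526 CD4-Cre cells that passed the filter, 8843 and 7746 met the 20% limit. The plasma cell name fitted the levels of the markers, and all 10 plasma cell markers were detected. Jchain, which links IgA dimers, had a UMI in 100% of assigned cells of both pools. It also had one in 100% and 99.97% of cells under 5% immunoglobulin UMIs, so only its level set the cells apart. That level was 51106 and 52958 CPM (UMIs scaled to a total of 1000000) in assigned cells, against 2216 and 2251. Sdc1, which encodes the surface protein CD138, had a UMI in 92.3% and 90.9% of assigned cells, against 6.38% and 5.38%. Of the 8 B cell markers, Ms4a1 (CD20) had a UMI in 1.59% and 2.27% and Pax5 in 0.168% and 0.443% of assigned cells, while Cd74, which plasma cells carry as well, reached 99.9% in both. T cell markers (6 of 6 detected) summed to 53.1 CPM in F/F and 70.0 in CD4-Cre, macrophage markers (5 of 5) to 25.6 and 20.9, and pancreatic enzyme genes (11 measured) to 429.9 and 1.80. The pancreatic RNA thus marked 1 pool. Leaving out the 52 assigned F/F cells with at least 1% pancreatic UMIs kept the number of segments past the fold between pools at 13. Gramd1a itself stood at 9.89 and 9.87 CPM in assigned plasma cells, and at 77.7 and 64.6 CPM in cells with a Cd3e UMI and under 5% immunoglobulin UMIs. These values do not check the deletion, since 3′ tags can lie outside a floxed stretch.

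An Igkv segment was assigned in 8313 of 8843 F/F plasma cells (94.01%) and 7221 of 7746 CD4-Cre plasma cells (93.2%). The assigned row carried a median of 49 UMIs in F/F and 48 in CD4-Cre, beside a median of 6131 and 6596 UMIs of Igkc, the constant part of the same chain. All Igkv rows together held 0.353% and 0.344% of plasma cell UMIs, and Igkc 34.5% and 37.0%. The library reads the 3′ end of transcripts, and the variable segment lies at the 5′ end, so the segment was seen in far fewer UMIs than the constant part.

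The assignment was clear in most cells. The leading row held a median of 93.2% of the Igkv UMIs of an F/F cell and 92.7% of a CD4-Cre cell, and it held at least 80% in 76.8% and 77.0% of cells. In 8.37% and 8.57% of cells the runner-up row had at least 50% as many UMIs as the leading one, and 20 and 14 cells had a tie. Cells with under 5% immunoglobulin UMIs, among them B cells (Ms4a1 in 2.27% and 3.94%), had a row with 5 UMIs in 1 of 2601 cases in F/F (0.0384%) and 4 of 3758 in CD4-Cre (0.106%), with a median of 4436 and 4062 UMIs per cell, where assigned cells had 17600 and 17658. Among the cells under 5%, those with a UMI of the T cell gene Cd3e should lack kappa chains. They had such a row in 0 of 1370 cases in F/F and 0 of 2145 in CD4-Cre. Counts of 0 allow shares of up to 0.219% and 0.140%, at medians of 4123 and 3860 UMIs. The limit of 5% itself makes 5 UMIs on a row unlikely, since assigned cells had 49 and 48 beside 6131 and 6596 Igkc UMIs. The low counts in cells under 5% therefore cannot show how much free RNA reaches a row in plasma cells. Just inside the limit on UMIs lay 171 F/F and 190 CD4-Cre cells with 5 to 9 UMIs on the row, and just outside it 86 and 121 cells with 3 or 4. Just inside the limit on immunoglobulin lay 347 and 235 assigned cells with 20 to 25%, and just outside it 349 and 217 cells with 15 to 20%, of which 290 and 171 had a row with 5 UMIs. Among the 530 F/F and 525 CD4-Cre plasma cells with no assigned segment, 275 (51.9%) and 238 (45.3%) had more UMIs of the lambda constant genes, which encode the alternative light chain, than of Igkc. The assigned cells included 58 and 46 such lambda cells. Of 21 assigned barcodes that occurred in both pools, 0 had the same segment in both.

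The 160 rows comprised 100 functional variable genes and 60 pseudogenes by annotation. Functional rows took 15531 of the 15534 cells, and the pseudogenes Igkv3-6, Igkv3-8 and Igkv3-11 took 1 cell each. Of the functional rows, 71 were assigned to at least 20 cells, 18 to between 1 and 19 cells and 11 to none. A row with no assigned cell can still be used by up to 3 cells of each pool (0.0361% of the 8313 F/F cells), a limit that covers counting error only.

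Segment use was uneven. In F/F 12 segments, and in CD4-Cre 13, held 50% of assigned cells, while 88 and 87 segments were seen. The leading 3 were Igkv10-96, Igkv12-46 and Igkv1-110, with 26.2% of F/F cells and 23.4% of CD4-Cre cells together, and the leading 15 held 54.7% and 54.4%. Igkv10-96, on chromosome 6 from 68631963 to 68632442 (minus strand), took 1147 F/F cells, 13.8% (95% exact interval 13.1 to 14.6), and 620 CD4-Cre cells, 8.59% (7.95 to 9.26). It was the most used segment of both pools, and the intervals did not overlap. Igkv12-46, from 69764523 to 69765022 (minus strand), took 632 cells or 7.60% (7.04 to 8.19) in F/F and 568 or 7.87% (7.26 to 8.51) in CD4-Cre, intervals that overlapped. Igkv1-110, from 68270485 to 68271267 (plus strand), took 398 cells or 4.79% (4.34 to 5.27) and 501 or 6.94% (6.36 to 7.55). These intervals, Clopper-Pearson at 95% as for all shares, cover the counting of cells only. Cells of a clone share their segment and mice were pooled, so the intervals are too narrow as a measure of what other mice would give.

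Below these 3, the order was close. Igkv5-43 held 2.65% of F/F cells and 3.21% of CD4-Cre cells, Igkv6-23 2.78% and 2.98%, and Igkv8-30 2.41% and 2.33%. Igkv10-94 held 3.13% and 2.44%, Igkv5-48 2.94% and 2.44%, and Igkv1-117 2.38% and 2.06%. For 4 of these 6 segments (Igkv6-23, Igkv8-30, Igkv5-48 and Igkv1-117) the interval of the ratio between pools spanned 1. Igkv14-111 held 3.02% and 2.09%, Igkv17-121 2.13% and 1.61%, Igkv12-44 2.41% and 3.03%, Igkv8-24 1.67% and 2.16%, and Igkv6-15 1.37% and 2.40%. Igkv6-32, the fifth by cells of both pools, was unlike its neighbours in that order, with 136 cells or 1.64% (1.37 to 1.93) in F/F and 310 or 4.29% (3.84 to 4.79) in CD4-Cre.

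**Figure D1:**
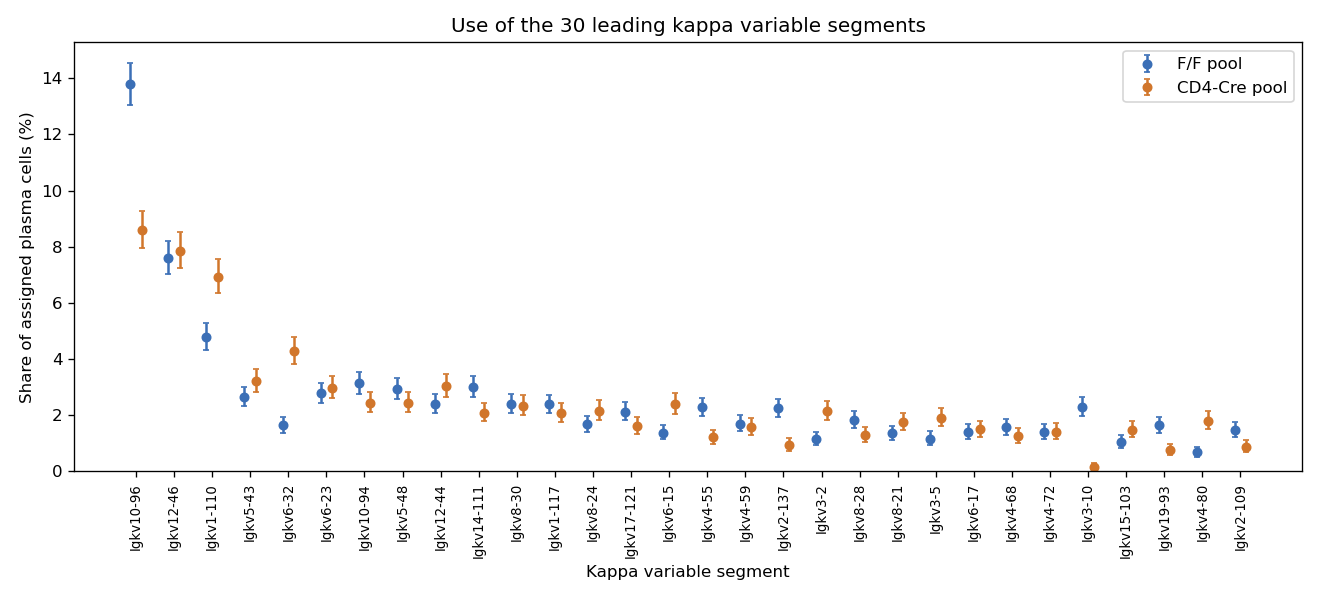
Share of assigned plasma cells (%) that use each of the leading kappa variable segments, ordered by the number of cells over both pools. Points are the 2 pools and bars exact 95% intervals that cover the counting of cells only; Igkv10-96 stands at 13.8% and 8.59%, and Igkv3-10 at 2.29% and 0.166%.

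By family, named by the first number of the symbol, Igkv4 was the broadest, with 26 functional rows that together held 15.2% of F/F cells and 14.8% of CD4-Cre cells. The Igkv10 family held 16.9% and 11.1% with 3 functional rows, Igkv12 12.0% and 13.3% with 6, Igkv6 9.17% and 13.6% with 9, and Igkv1 8.53% and 11.1% with 10. Family shares thus differed by less than 2-fold between pools for these 5 families. The single functional rows of Igkv11, Igkv7, Igkv18 and Igkv20 held 50, 11, 7 and 0 cells in all.

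Use was not spread evenly over the locus, which lies on chromosome 6 with Igkc at its end. The 40 functional segments within 1000 kb of Igkc held 42.1% of F/F cells and 47.4% of CD4-Cre cells. The 31 between 1000 and 2000 kb held 19.04% and 17.8%, and the 29 beyond 2000 kb held 38.9% and 34.8%. The middle stretch thus held the smallest share in both pools. Of the 100 functional segments 62 lie against the orientation of Igkc and join by inversion. They were used by 68.8% of F/F cells (67.8 to 69.8) and 67.3% of CD4-Cre cells (66.2 to 68.4). Both shares are a little above the 62% that equal use of all functional segments would give. Igkv10-96 (2094 kb from Igkc) and Igkv12-46 (961 kb) join by inversion, and Igkv1-110 (2455 kb) by deletion.

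**Figure D2:**
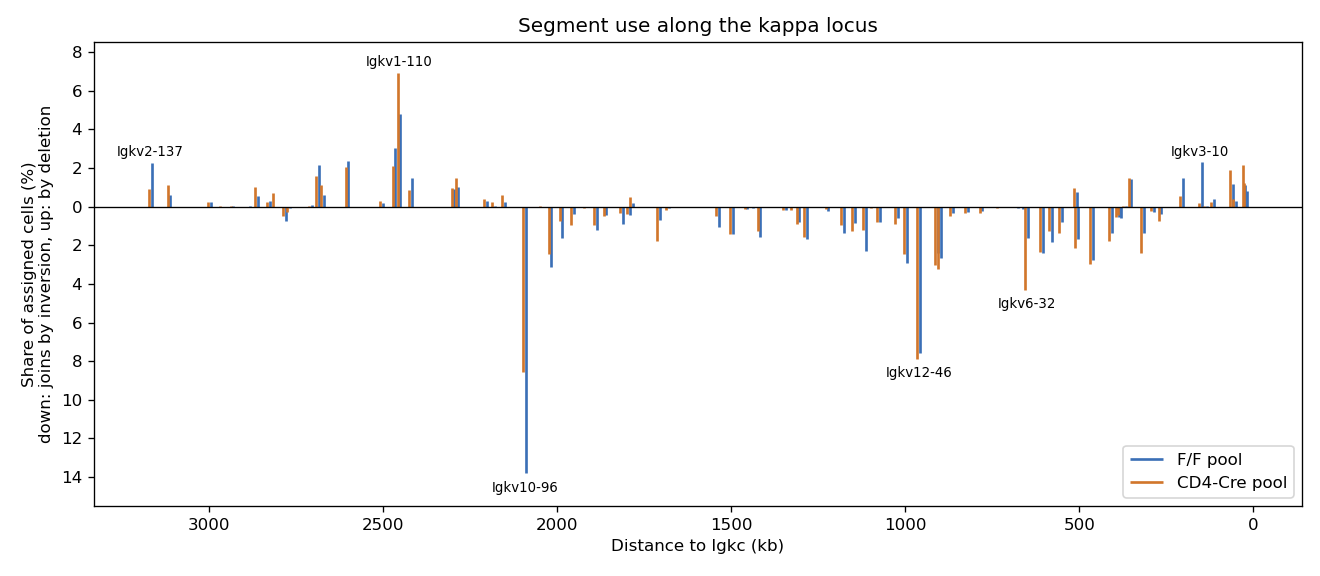
Share of assigned cells (%) for each functional segment against its distance to Igkc in kb, upwards for segments that join by deletion and downwards for those that join by inversion, 1 bar per pool drawn side by side. The highest bars, Igkv10-96, Igkv12-46 and Igkv1-110, lie apart from each other, and no segment between 1000 and 2000 kb exceeds 2.27% in either pool.

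Between the pools, 13 of the 71 segments with at least 20 cells (18.3%) were past the fold used here: a ratio of shares of at least 2 or at most 0.5 with an interval clear of 1. Of these, 7 were higher in CD4-Cre (9.86%) and 6 higher in F/F (8.45%). The 76 heavy variable segments with as many cells gave 20 past the same fold (26.3%). The CD4-Cre side held Igkv6-32, Igkv4-80, Igkv4-91, Igkv12-98, Igkv13-84, Igkv11-125 and Igkv9-123, and the F/F side Igkv2-137, Igkv3-10, Igkv19-93, Igkv3-12, Igkv4-74 and Igkv4-86. When each combination of an Ighv and an Igkv segment was counted once per pool rather than once per cell, 0 of 53 segments with at least 20 combinations were past the fold. That count rests on 1371 F/F and 1350 CD4-Cre combinations in place of 7916 and 6763 cells, so its intervals are wider. It weighs a combination seen in 1 cell (615 in F/F and 600 in CD4-Cre) as much as a large one. A segment can have at most as many combinations as heavy segments in use (94 and 98). By construction this narrows the spread of ratios, so the 0 does not show that the pools are alike. Of the 13 segments, Igkv4-86, Igkv12-98, Igkv11-125 and Igkv9-123 had 16, 17, 4 and 5 combinations, under the minimum of 20, and could not be past the fold by this count.

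Igkv3-10, from 70572633 to 70573230 (plus strand), had the widest gap among segments seen in both pools and in at least 20 cells. It was the segment of 190 F/F cells, 2.29% (1.98 to 2.63), and of 12 CD4-Cre cells, 0.166% (0.0859 to 0.290), a ratio of 0.0727 (0.0369 to 0.130). Its partner in F/F was mostly the same: 149 of 180 cells with an Ighv row of at least 5 UMIs (82.8%) carried Ighv5-15, and 0 of 11 CD4-Cre cells carried that pair. Counted by pairs, Igkv3-10 had 17 partners in F/F and 7 in CD4-Cre, a ratio of 0.418 (0.147 to 1.06). Without the leading pair of each segment, taken over both pools together, the ratio of cells was 0.340. The pair left out here was the one with Ighv5-15 (149 F/F and 0 CD4-Cre cells). Where the pools hold such a pair unevenly, leaving it out moves the ratio by construction. Igkv3-10 shares 125 stretches of 50 bases with Igkv3-5, printed under it above, and Igkv3-5 was the runner-up row, with at least 10% as many UMIs, in 33.7% of Igkv3-10 cells.

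Igkv11-125, from 67913573 to 67914052 (plus strand), the sole functional member of its family, was assigned to 0 of 8313 F/F cells and to 50 of 7221 CD4-Cre cells, 0.692% (0.514 to 0.912). Set against 3 F/F cells, the number that a count of 0 allows, its observed CD4-Cre share was 19.2-fold higher. That value leaves out the counting error of the CD4-Cre cells. The exact interval of the ratio, which covers the counts of both pools, began at 15.04. Of the 46 cells with a partner, 40 carried Ighv3-3. Its summed level in plasma cells was 0.581 CPM for F/F against 17.9 CPM for CD4-Cre, so some UMIs of the row were present in F/F.

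Igkv6-32, from 70074024 to 70074603 (minus strand), was 2.62-fold (2.14 to 3.23) higher in CD4-Cre. Its cells were held by a different partner in each pool: Ighv3-6 in 74 of 132 F/F cells (56.1%) and Ighv1-59 in 157 of 283 CD4-Cre cells (55.5%). By pairs its ratio was 1.90 (0.979 to 3.82), and without the leading pair of each segment 1.58. The pair left out was the leading one over both pools, with Ighv1-59 (24 F/F and 157 CD4-Cre cells), while Ighv3-6 stayed in. Igkv4-80 held 56 F/F and 130 CD4-Cre cells, a ratio of 2.67 (1.94 to 3.72), with Ighv9-3 as the partner of 64.3% in F/F and Ighv5-15 of 22.6% in CD4-Cre. By pairs its ratio was 1.32, while without the leading pair of each segment it was 6.44. The pair left out here was the one with Ighv9-3 (36 F/F and 19 CD4-Cre cells), while Ighv5-15 stayed in, so this rise follows from the rule. Igkv2-137, the functional segment farthest out among those named here (3170 kb from Igkc), held 187 and 67 cells, a ratio of 0.412 (0.307 to 0.548), and 0.831 by pairs. Its leading partner was Ighv1-62-3 in F/F (45 of 170) and Ighv1-47 in CD4-Cre (27 of 65).

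The other segments past the fold had fewer cells. Igkv19-93 was seen in 136 F/F and 54 CD4-Cre cells (ratio 0.457), Igkv3-12 in 124 and 39 (0.362), Igkv4-74 in 88 and 36 (0.471), and Igkv4-86 in 76 and 25 (0.379). Igkv4-91 was seen in 31 and 67 cells (2.49), Igkv12-98 in 20 and 45 (2.59), Igkv13-84 in 15 and 36 (2.76), and Igkv9-123 in 5 and 19 (4.37). By pairs, Igkv12-98 (2.44) and Igkv13-84 (2.03) stayed at least 2-fold higher in CD4-Cre with intervals that spanned 1, and Igkv3-12 and Igkv4-74 stood at 0.703 and 0.657. Also by pairs, Igkv19-93 and Igkv4-86 stood at 1.10 and 1.02, and Igkv4-91 and Igkv9-123 at 0.896 and 0.677, on the other side of 1 from their ratios of cells, the last from 3 against 2 pairs. Among cells with at least 50% immunoglobulin UMIs, Igkv13-84 stood at 10.6, Igkv9-123 at 1.06, Igkv3-10 at 0.139 and Igkv19-93 at 0.733, and with 20 UMIs on the row Igkv13-84 stood at 1.54. In 18 of its 24 cells, Igkv9-123 had Igkv4-55 as the runner-up row with at least 10% as many UMIs, and among cells whose leading row held 80% of Igkv UMIs its ratio was 0.230.

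Across the 71 segments, shares in the pools had a Pearson correlation of 0.878 and a Spearman correlation of 0.798, as a description over segments that share a library and a locus. Over the 53 segments with at least 20 pairs, the median fold between pools, taken without direction and leaving out segments at 0 in a pool, was 1.44 by cells and 1.23 by pairs. The value by pairs is narrowed by the construction given above.

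**Figure D3:**
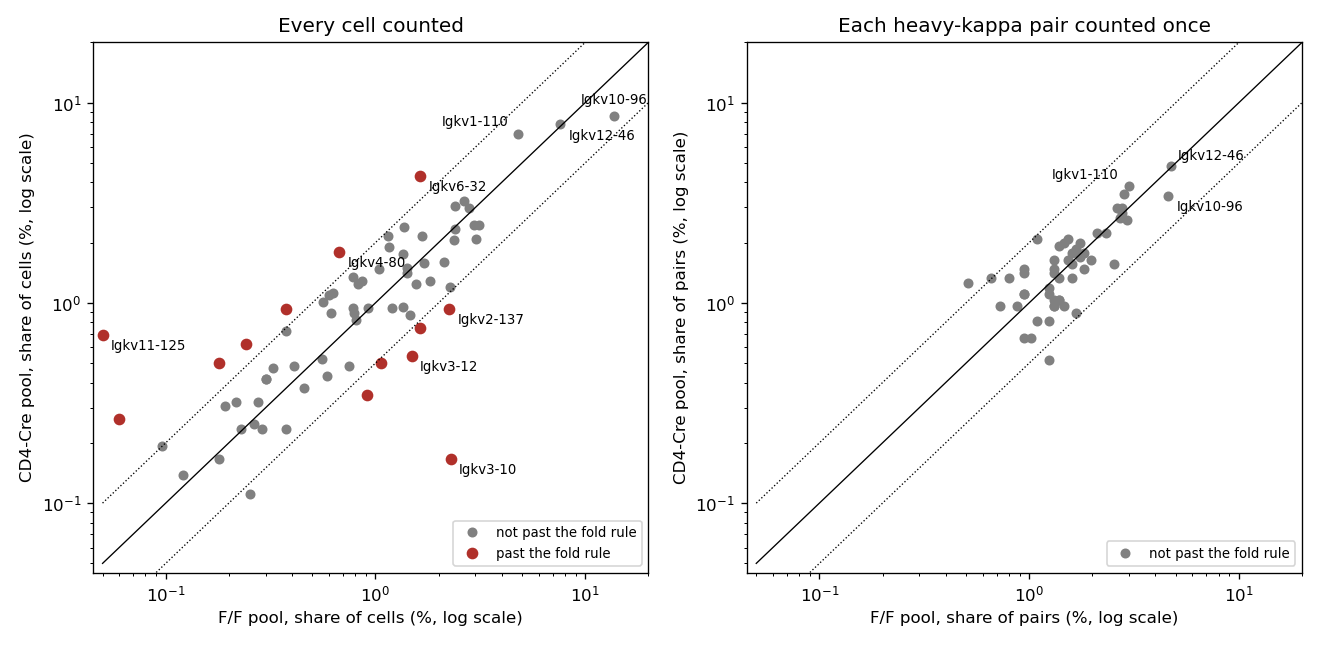
Share in CD4-Cre against share in F/F for each segment (%, log scales), by cells on the left (71 segments) and with each heavy and kappa combination counted once on the right (53 segments); the solid line is equality, the dotted lines 2-fold, and Igkv11-125, at 0 in F/F, is drawn at the left edge. On the left 13 segments (red) are past the fold, which also asks for an interval clear of 1, and on the right 0 are.

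The summed UMIs of plasma cells gave a like picture on another scale. Of 95 Igkv rows with at least 100 UMIs, 19 (20%) were at least 2-fold higher in CD4-Cre by CPM and 13 (13.7%) at least 2-fold lower, where 0.576% and 0.662% of all 12843 genes with as many UMIs were. The median of the log2 ratio without its sign was 0.63 over Igkv rows and 0.11 over all genes. Igkv10-96 stood at 356.9 CPM in F/F and 185.5 in CD4-Cre, Igkv6-32 at 43.4 and 119.1, and Igkv3-10 at 57.6 and 6.86. Igkc, by contrast, differed little, at 344584 and 369519 CPM.

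Most measured genes that act on the kappa locus or on its product were within 2-fold between the pools. So were most of all genes, of which 0.576% were at least 2-fold higher in CD4-Cre and 0.662% lower. Of 16 measured factors known to act on kappa promoters and enhancers, 1 was at least 2-fold higher in CD4-Cre and 0 lower: Pax5, the B cell identity factor, at 0.230 and 0.695 CPM, near 0 in both. Pou2af1, the coactivator that works with octamer-binding proteins at variable segment promoters, stood at 205.5 and 163.4 CPM, and Irf4, which binds the kappa enhancer, at 94.03 and 68.0. Of 8 genes of plasma cell secretion and 6 measured lambda genes, 0 were past 2-fold in either direction. Within that limit, the lambda gene Iglc2 stood at 5117 and 2717 CPM (ratio 0.531) and Prdm1 at 59.4 and 40.1 (0.675). Iglc1 and Jchain were nearer to level, at ratios of 1.11 and 1.04. The recombination and editing list had only 2 measured genes, Vpreb1 and Vpreb3, also within 2-fold. Vpreb1 stood at 0.339 and 0.333 CPM, and Vpreb3 at 210.7 and 179.7. Rag1 and Rag2, the recombinase, had 0 UMIs in plasma cells of both pools, a count that allows up to 3. Igkc was the only measured member of the constant and joining list of 6 genes: the Igkj rows held 2 UMIs in F/F and 0 in CD4-Cre over all barcodes with at least 1000 UMIs, so the joining segment of a cell could not be read.

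Heavy partners showed how far single combinations filled a segment. Igkv12-46 was broad in both pools: its leading partner, Ighv3-6, held 12.3% of the 593 F/F cells with a partner and 12.7% of the 512 such CD4-Cre cells, and its effective number of partners (the inverse of the chance that a pair of cells drawn at random share one) was 23.1 and 26.1. Igkv10-96 was not. In F/F 326 of its 1043 cells (31.3%) carried Ighv3-3, and in CD4-Cre 291 of 560 (52.0%) carried Ighv1-69, with effective numbers of 7.38 and 3.47. Igkv1-110 was led by Ighv1-85 in F/F (82 of 385 cells) and by Ighv5-15 in CD4-Cre (60 of 478). Igkv5-43 was led by Ighv1-77 in F/F (33 of 212 cells) and Ighv1-18 in CD4-Cre (42 of 221 cells). Of the 5 leading segments, only Igkv12-46 had the same leading partner in both pools.

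The 5 most frequent pairs of F/F were Ighv3-3 with Igkv10-96 (326 F/F and 45 CD4-Cre cells), Ighv5-15 with Igkv3-10 (149 and 0), Ighv1-9 with Igkv4-55 (142 and 48), Ighv1-52 with Igkv10-96 (134 and 7) and Ighv1-47 with Igkv8-30 (128 and 2). Those of CD4-Cre were Ighv1-69 with Igkv10-96 (96 and 291), Ighv1-59 with Igkv6-32 (24 and 157), Ighv1-47 with Igkv3-5 (2 and 99), Ighv1-26 with Igkv10-94 (43 and 91) and Ighv1-9 with Igkv8-21 (67 and 71). The last of these was nearly level between the pools, whereas 4 of the 10 pairs had at most 7 cells in 1 pool. In all 2073 pairs were seen, 648 of them in both pools, and 615 F/F and 600 CD4-Cre pairs were seen in 1 cell. Of the 162 pairs with at least 20 cells, 73 had at least 90% of them in 1 pool. The 10 leading pairs held 16.4% of F/F cells and 14.9% of CD4-Cre cells with a pair. A pair is not a clone, since unrelated cells can join the same segments and the junction was not read.

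**Figure D4:**
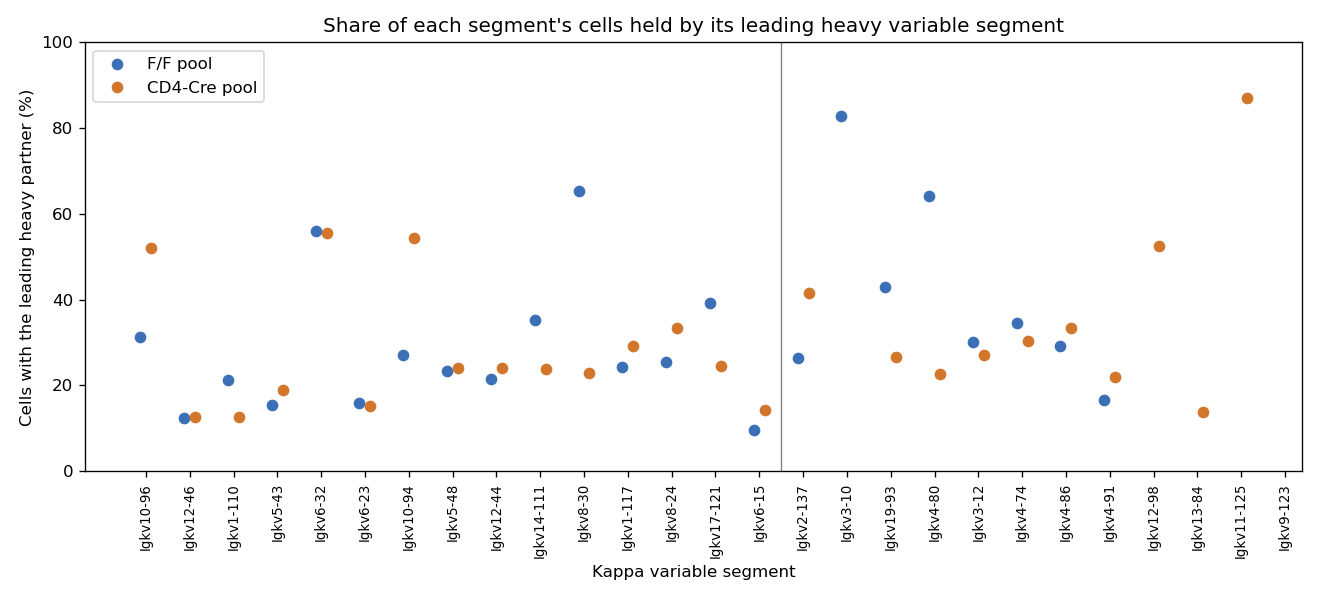
For each segment, the share (%) of its cells with an assigned Ighv row that carry the most frequent Ighv of that pool; the grey line separates the 15 leading segments from further segments past the fold between pools, and pools with under 20 such cells are not drawn. Igkv12-46 lies at 12.3% and 12.7%, while Igkv3-10 in F/F lies at 82.8% and Igkv11-125 in CD4-Cre at 87.0%.

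The effective number of kappa segments, defined as for partners, was 25.2 (24.1 to 26.4) in F/F and 31.4 (30.2 to 32.7) in CD4-Cre. With each pair counted once it was 53.4 (50.2 to 57.1) and 52.8 (49.6 to 56.3). Counting cells, use was thus more concentrated in F/F, by intervals that cover the counting of cells only. Counting pairs, which has the limits given above, the intervals overlapped. The effective number of pairs was 185.9 (173.5 to 200.2) and 200.05 (184.0 to 219.2), and that of heavy segments in the same cells 41.5 and 41.7. With pairs counted once, the 3 leading segments held 12.3% of F/F pairs and 12.1% of CD4-Cre pairs, against 26.2% and 23.4% of cells. Igkv12-46 (4.74% and 4.81%) then stood above Igkv10-96 (4.60% and 3.41%) in both pools.

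By isotype, the assigned cells were nearly all IgA, the secretory antibody class of the gut: 8185 F/F cells (98.5%) and 7106 CD4-Cre cells (98.4%) had most heavy constant UMIs on Igha. IgG made up 119 (1.43%) and 94 (1.30%) cells, of which 72 and 33 were Ighg1 and 41 and 58 Ighg2b, and IgM 9 and 21 cells. In F/F, IgG cells used Igkv17-121 most, in 13 of 119 (10.9%, 5.95 to 18.0) against 2.00% of IgA cells. Of the 12 Igkv17-121 IgG cells with a partner, 9 carried Ighv1-19, as did 6 of the 7 IgG cells with Igkv8-27. In CD4-Cre, IgG cells used Igkv3-5 most, in 13 of 94 (13.8%, 7.57 to 22.5) against 1.76% of IgA cells, and 11 of these 13 carried Ighv1-47. The same pair, Ighv1-47 with Igkv3-5, held 90 IgA cells over both pools. Igkv10-96 was used by 5 of 119 and 4 of 94 IgG cells (4.20% and 4.26%), against 14.0% and 8.67% of IgA cells. Thus the leading IgG segment differed between the pools, and each was mostly a single heavy and kappa combination. In F/F, however, Ighv1-19 was shared by IgG cells of several kappa segments. It also led those with Igkv5-48 (5 of 6), Igkv17-127 (3 of 4) and Igkv5-43 (2 of 2). Other F/F IgG cells differed, with Ighv1-72 leading Igkv6-23 (5 of 8) and Ighv1-47 leading Igkv8-30 (5 of 6).

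Segments at least 2-fold more frequent among IgG than IgA cells in both pools were 3 of 71 (4.23%), namely Igkv4-91, Igkv12-41 and Igkv6-20, each with 1 to 3 IgG cells per pool. For IgM the count was 1 of 71 (1.41%), Igkv1-117, with 2 of 9 and 2 of 21 cells. In CD4-Cre, 6 of the 21 IgM cells used Igkv8-24, 5 of them with Ighv3-6. At least 2-fold less frequent in both pools were 22 of 71 segments for IgG (31%) and 53 of 71 for IgM (74.6%). Most of these segments cannot be read, because in so few cells a segment of usual share is often missing by counting alone. Igkv10-96, given above, was among the 22, at ratios of 0.301 in F/F and 0.491 in CD4-Cre. Its interval in F/F IgG cells (1.38 to 9.53) lay below the IgA share of 14.0%. In CD4-Cre the interval (1.17 to 10.5) included the IgA share of 8.67%. By CPM, 16 of 81 Igkv rows in F/F and 10 of 85 in CD4-Cre were at least 2-fold higher in IgG than IgA cells (19.8% and 11.8%), where 9.35% and 7.96% of all genes were. For IgM the counts were 8 of 81 (9.88%) and 7 of 85 (8.24%), against 19.1% and 9.61% of all genes. At least 2-fold lower in IgG cells were 47 of 81 and 49 of 85 rows, against 8.76% and 8.35% of all genes, and in IgM cells 70 of 81 and 73 of 85, against 39.4% and 28.7%, with the same limit.

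Cycling plasma cells, with a UMI for at least 5 of 12 cell-cycle genes, numbered 807 in F/F (9.71%, 9.08 to 10.4) and 659 in CD4-Cre (9.13%, 8.47 to 9.81). Cells with at most 1 such gene, 6811 and 5920, were counted as not cycling, and 695 and 642 lay between. At the limit, 50 and 49 cells had 5 genes and 76 and 57 had 4. Cycling cells were deeper (median 26749 and 25136 UMIs against 16739 and 17022) with a lower immunoglobulin share (31.4% and 32.2% against 53.3% and 54.7%). Their leading row held 80% of Igkv UMIs less often, in 56.8% and 57.4% of cells against 80.4% and 80.02%. The part of depth and immunoglobulin share in the segment differences that follow was not tested. The median on the leading row was 45 and 44 UMIs in cycling and 50 and 49 in other cells.

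Igkv10-96, the leading segment, was less used among cycling cells in both pools: 9.29% of cycling against 14.6% of not cycling cells in F/F, and 4.55% against 9.07% in CD4-Cre. Igkv12-46 was more used, with 11.8% against 6.92% in F/F and 10.8% against 7.23% in CD4-Cre, which made it the leading segment of cycling cells in both pools. Put the other way, 6.54% (5.18 to 8.13) and 4.84% (3.29 to 6.84) of Igkv10-96 cells cycled, against 15.03% (12.3 to 18.1) and 12.5% (9.89 to 15.5) of Igkv12-46 cells. These intervals do not overlap within a pool. Igkv6-32 cells cycled in 14.0% and 16.5% of cases, and Igkv1-110 cells in 11.8% and 10.6%. None of these segments was past 2-fold in both pools, the limit set for this comparison.

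Past it were 2 of 68 segments on the higher side (2.94%) and 5 on the lower side (7.35%). Igkv17-127 made up 1.36% of cycling and 0.455% of not cycling cells in F/F and 1.67% and 0.811% in CD4-Cre, from 11 cycling cells in each pool. Igkv4-63 had 5 and 3 cycling cells against 10 and 9 not cycling ones. On the lower side, Igkv8-30 had 9 cycling cells against 181 in F/F and 3 against 154 in CD4-Cre, ratios of 0.420 and 0.175. Igkv4-53 had 3 against 60 and 2 against 52, and Igkv13-85, Igkv3-4 and Igkv13-84 had at most 2 cycling cells in a pool. Counting pairs once, or leaving out the leading pair of each segment, brought the 7 down to 4 in both cases. Among cells with at least 50% immunoglobulin UMIs 71 cycling cells were left, too few for this comparison.

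Within a segment, cycling shares differed between pairs. Ighv1-69 with Igkv10-96 had 0 of 96 cycling cells in F/F and 5 of 291 (1.72%) in CD4-Cre, and Ighv3-3 with Igkv10-96 had 9 of 326 (2.76%) and 2 of 45. By contrast Ighv1-52 with Igkv10-96 had 12 of 134 (8.96%) in F/F. Ighv1-9 with Igkv8-21 had 13 of 67 (19.4%) and 10 of 71 (14.1%), and Ighv1-59 with Igkv6-32 had 4 of 24 (16.7%) and 25 of 157 (15.9%). In F/F, Ighv1-9 with Igkv4-55 had 1 of 142 (0.704%), and in CD4-Cre 3 of 48 (6.25%). Ighv3-6 with Igkv12-46 had 17 of 73 (23.3%) in F/F and 3 of 65 (4.62%) in CD4-Cre.

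**Figure D5:**
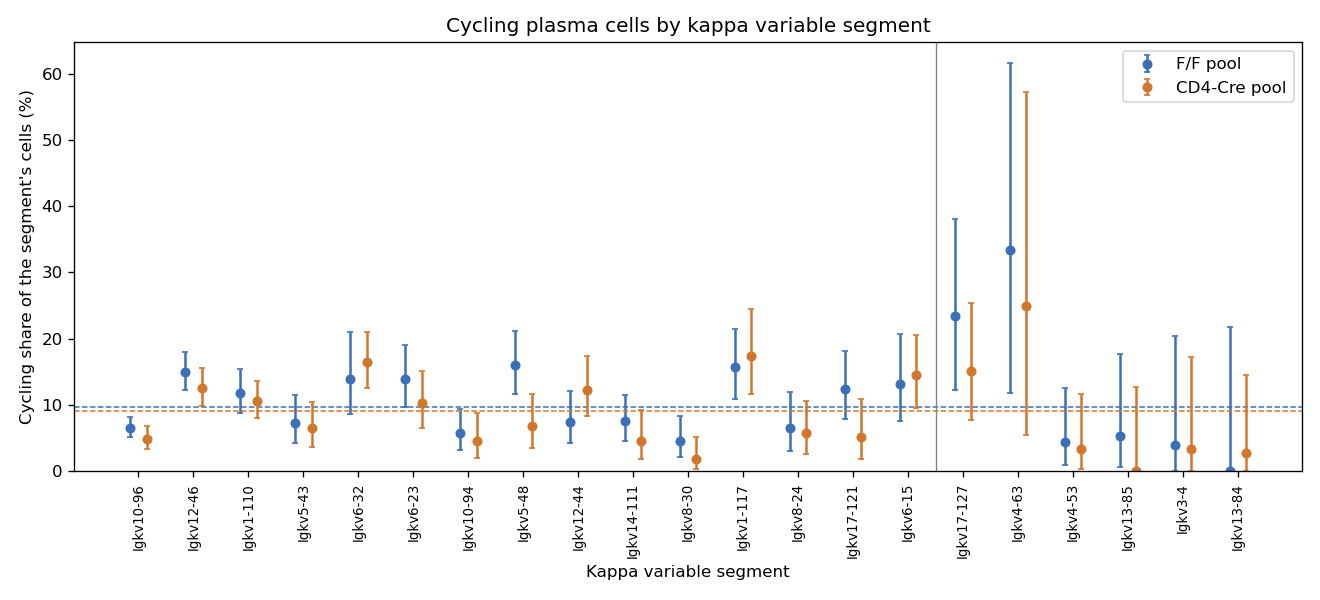
Share (%) of the cells of each segment that were cycling, with exact 95% intervals over cells, for the 15 leading segments and, right of the grey line, the further segments past 2-fold in both pools; dashed lines give all assigned cells (9.71% and 9.13%). Igkv10-96 lies below and Igkv12-46 above the dashed line of its pool in both pools, and the intervals right of the grey line are wide.

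On the scale of summed UMIs, the Igkv rows fell with the other immunoglobulin genes in cycling cells. At least 2-fold lower were 37 of 80 rows in F/F (46.2%) and 35 of 85 in CD4-Cre (41.2%), where 2.19% and 1.70% of all genes were, and at least 2-fold higher were 1 and 4 rows (1.25% and 4.71%), against 18.6% and 19.8% of all genes. Igkc moved by a log2 ratio of -0.73 and -0.71, while the median of all genes was 0.50 and 0.52. Relative to Igkc the segment level differed less, at a median of 7.58 UMIs per 1000 Igkc UMIs in cycling and 8.34 in other F/F cells, and 7.05 and 7.27 in CD4-Cre.

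Segments differed in how many UMIs they gave per chain. Over segments with at least 20 cells, the median ran from 3.12 per 1000 Igkc UMIs for Igkv13-84 to 17.6 for Igkv3-12, with a middle value of 7.74. The order was shared by the pools (Spearman 0.888 over segments, as a description) and had no relation to how many cells used the segment (Spearman -0.0041). A low-yield segment is harder to assign at 5 UMIs, so its share of cells is a lower estimate. The treatment of reads that match several rows is not given in the sources used here. Such reads can lower the yield of near-identical segments.

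In 4633 cells (29.8%) the runner-up row had at least 10% as many UMIs as the leading row. In 742 of the 899 Igkv1-110 cells (82.5%) it was Igkv1-117, at a median of 0.233 times the UMIs of Igkv1-110, and the 2 transcripts share 177 stretches of 50 bases. The reverse, Igkv1-110 behind Igkv1-117, was seen in 2 cells. With the limit of 80% on the leading row, Igkv1-110 went from 4.79% to 1.55% of cells in F/F and from 6.94% to 2.45% in CD4-Cre. Igkv4-72 was the runner-up in 67.5% of Igkv4-59 cells and 38.2% of Igkv4-68 cells. Igkv10-94 and Igkv10-96, with 96 shared stretches, behaved otherwise: Igkv10-96 was the runner-up in 2.06% of Igkv10-94 cells. In 3215 of the 4633 cells the runner-up came from another family, and Igkv3-1, 22.3 kb from Igkc, was the most frequent of these, with 637 cells (19.8%). Whether such cells hold a rearrangement on each chromosome, are doublets or hold free RNA was not tested.

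Free RNA was read from barcodes with 10 to 100 UMIs, 56596 in F/F and 59955 in CD4-Cre, which held 1886 and 2111 Igkv UMIs. Igkv10-96 made up 9.17% and 7.91% of these, Igkv12-46 10.3% and 10.5%, and Igkv6-32 2.23% and 3.22%. Igkv3-10 made up 0.848% in F/F and 0.995% in CD4-Cre, unlike its share of cells (2.29% and 0.166%), and Igkv11-125 0.106% and 0.379%, from 2 and 8 UMIs.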

How the data were processed

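Each library was a 10x Genomics 3′ gene expression library of 1 pool of 3 mice. Per the submitters' processing notes, Cell Ranger 7.2.0 and mm10/GRCm38 were used. Values from Seurat 5.0.1, also named there, were not used here. The deposited UMI counts, 2307624 and 2270301 unfiltered barcodes, were used as deposited. Cells needed at least 1000 UMIs, 500 genes and at most 10% mitochondrial UMIs; doublets were not called. Isotype was the heavy constant gene, and the partner the Ighv row, with most UMIs (at least 5). Positions and transcripts came from GENCODE M21, to which all 160 Igkv rows were matched by identifier.

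With 1 pool per genotype no p-value was computed. Shares carry exact Clopper-Pearson 95% intervals, and ratios exact intervals from the binomial split of the counts, for counting error only. Effective numbers carry 95% intervals from a normal approximation, also for counting error only. Computation used Python 3.11.15, numpy 2.4.6, scipy 1.17.1, pandas 2.3.3 and matplotlib 3.10.9, and was tested on simulated data. Named were the 15 segments with most cells, up to 6 per direction past the fold in each comparison (for the pools all 13 are named), the 5 leading pairs per pool and the leading partners of the 5 leading segments; other segments were chosen after their values were seen. The members, gene lists and rules were chosen with earlier results of these data known. Recombination signal and promoter sequences were not analysed here. Other cell, isotype and cycling limits, thinning to 5000 UMIs, and counting pairs once were tried. The check on Cd3e cells was added after seeing the data. Some genes of the lists are not reported here.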

Additional observations from a re-analysis of the deposited data

How the results depend on the processing

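No paired analysis was possible because each genotype was 1 pool without a replicate number, and for the same reason no replicate could be left out. The 13 segments past the fold between pools became 0 with each pair counted once, which uses fewer units and narrows ratios by construction. Under the other alternatives they were 13 to 18, with 18 at 50% immunoglobulin UMIs, of which 10 were among the 13. Without the leading pair of each segment they were 17, of which 4 were among the 13. That setting, with the pair taken over both pools together, was chosen after seeing the data. With each pair counted once 4 ratios changed side: Igkv19-93 to 1.10, Igkv4-86 to 1.02, Igkv4-91 to 0.896 and Igkv9-123 to 0.677. With 80% of Igkv UMIs on the leading row Igkv9-123 went to 0.230 and the F/F effective number to 23.1. The effective numbers were 53.4 and 52.8 with pairs counted once, and 20.1 and 30.2 without the leading pairs. The count by cycling state, 7, was 34 at 50% immunoglobulin UMIs, where 71 cycling cells remained, 4 with pairs counted once and 4 without the leading pairs. The IgG count, 3, was 1 with 20 UMIs on the row and 1 after thinning to 5000 UMIs, and the IgM count, 1, was 2 with the 80% limit. The 32 Igkv rows past 2-fold by CPM were 58 with no minimum above 1 UMI, where 4915 of 23308 genes were past it. Apart from the construction named here, the cause of each shift was not tested. IgM and IgG cells were too few to show lower use of most segments.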
